A study of Mus musculus with 6 samples.

Results

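Levels of 10 genes that handle vitamin A in photoreceptors were followed in rods and cones sorted from mouse retina 6 months after delivery of a guide RNA against Nr2e3, a nuclear receptor gene of rods. The genes are Rdh8, Rdh11, Rdh12, Rdh13 and Rdh14 (retinal reductases), Rdh10, Dhrs3 and Retsat (other enzymes of retinol and retinal) and Abca4 and Rbp3 (retinoid carriers). They were chosen by name as known members of the pathway, and all 10 were found among the 49997 genes counted. The Nr2e3 guide group holds 3 libraries (replicate 1 from a male, replicates 2 and 3 from females) and the control group, with a non-targeting guide, holds 3 libraries from males. All 6 mice were Rosa26-Cas9 animals, in which every cell carries SpCas9, and all received the guide under the retina in an adeno-associated virus with the 7m8 capsid. A human GRK1 promoter in that virus restricted mCherry to photoreceptors, and about 100000 mCherry-positive cells from the 2 retinas of 1 mouse made 1 library. Age at injection is given as postnatal day 21 in one place and as 4 weeks in another. Per the labels, every library thus comes from its own animal.

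The visual cycle regenerates the light-sensitive cis-retinal of opsins. Light turns it into all-trans-retinal, which is released into the disc, carried across the disc membrane and reduced to all-trans-retinol with NADPH inside the photoreceptor. The alcohol then crosses the interphotoreceptor matrix to the pigment epithelium or to Muller glia, where the cis form is remade. Photoreceptors therefore hold the reductases and the carriers, while the isomerase and the acyltransferase of the cycle are genes of the pigment epithelium.

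Gene counts per library ran from 24705561 to 33098812 with the Nr2e3 guide and from 32626751 to 34286248 with the control guide. Levels are given in CPM, the count per unit of TMM-scaled library size, and a level of 3 counts equals 0.0802 to 0.131 CPM. The targeted gene, Nr2e3, stood at 2094, 1906 and 2244 CPM in guide libraries, against 1756, 1572 and 1507 CPM in control libraries. Counts over a whole gene do not read the small insertions and deletions that Cas9 leaves, and the labels are therefore not checked by this level. Control replicate 3 stood apart from the other control libraries: its 13 microglia markers were all above both of them, summing to 325 CPM against 36.1 and 38.7 CPM, and 11 of its 12 cone markers were below both. Among guide libraries the microglia markers summed to 38.5, 191 and 129 CPM. Markers of pigment epithelium summed to 39.1, 39.5 and 81.4 CPM in guide libraries, against 92.3, 113 and 38.4 CPM in control libraries. Most of this sum was Rlbp1, which Muller glia also express. Without Rlbp1 the other 11 markers summed to 5.20, 1.13 and 3.53 CPM in guide libraries, against 20.5, 20.1 and 0.855 CPM in control libraries, with control replicates 1 and 2 above the rest. The sum of 13 rod markers was 141726 to 149607 CPM in guide and 125524 to 150277 CPM in control libraries, with none of the 13 at 0.

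Sequence of the members is given here ahead of their levels. RefSeq promoter windows (GRCm38.p6), from 250 bases before to 50 bases after a gene's start, covered 8 of the 10 genes in 11 windows. They were searched on both strands for TAATCC, a core bound by the photoreceptor factor CRX, and for AAGTCA, a half-site bound by NR2E3, motifs that do not overlap each other. TAATCC was in 2 of the 11 windows, those of Abca4 and Rbp3, against 7.06% of all 32851 promoter windows, and AAGTCA in 2, those of Rdh14 and the inner start of Rdh11, against 15.1%. These 4 windows are shown because they hold the only matches. Rdh10 and Rdh13 had no window and were not searched. Capitals mark the match, which in Abca4 and Rbp3 lies on the opposite strand and so reads GGATTA, and bases in annotated exons were left off.
Abca4, chr3:122044210-122044442, plus strand: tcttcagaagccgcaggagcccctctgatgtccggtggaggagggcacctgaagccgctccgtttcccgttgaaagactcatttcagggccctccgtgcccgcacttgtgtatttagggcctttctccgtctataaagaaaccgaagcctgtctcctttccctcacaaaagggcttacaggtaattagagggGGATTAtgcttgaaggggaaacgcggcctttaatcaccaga
Rbp3, chr14:33953753-33954002, plus strand: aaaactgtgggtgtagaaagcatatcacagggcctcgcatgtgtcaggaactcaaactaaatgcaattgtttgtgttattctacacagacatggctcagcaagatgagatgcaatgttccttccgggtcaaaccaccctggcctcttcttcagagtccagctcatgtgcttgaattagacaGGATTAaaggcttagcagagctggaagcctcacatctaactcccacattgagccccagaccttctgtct
Rdh14, chr12:10390530-10390771, plus strand: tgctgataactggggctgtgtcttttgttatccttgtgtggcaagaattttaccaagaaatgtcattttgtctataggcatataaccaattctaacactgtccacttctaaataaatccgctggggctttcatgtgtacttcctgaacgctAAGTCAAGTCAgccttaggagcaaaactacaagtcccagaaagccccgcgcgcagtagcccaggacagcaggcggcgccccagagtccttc
Rdh11, chr12:79190962-79191211, minus strand: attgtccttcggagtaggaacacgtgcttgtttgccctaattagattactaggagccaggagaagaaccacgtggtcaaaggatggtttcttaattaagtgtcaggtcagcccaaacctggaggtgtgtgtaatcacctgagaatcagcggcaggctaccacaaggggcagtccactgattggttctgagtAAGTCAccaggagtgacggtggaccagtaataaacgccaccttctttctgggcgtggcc
The matches begin 58 bases before the start in Abca4, 69 in Rbp3, 59 in Rdh11 and 99 and 94 in Rdh14, where 2 of them share a base. A match describes letters and no binding was measured.

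By length-scaled level (CPM per kilobase of exon, with GENCODE M21 lengths), the 10 genes spanned more than 2 orders of magnitude. Rbp3, the interphotoreceptor retinoid-binding protein, averaged 519 ± 193 CPM per kilobase in guide and 537 ± 373 in control libraries (SD, n = 3 each). Rdh12, the reductase of the inner segment, followed with 409 ± 28.9 CPM per kilobase in guide and 488 ± 116 in control libraries, and Dhrs3 with 322 ± 59.6 and 451 ± 37.9. Neighbours among these 3 overlapped in both groups, whereas Abca4, at 104 ± 11.7 CPM per kilobase in guide and 117 ± 5.56 in control libraries, lay below all of them and above the rest. Rdh8 and Rdh11 were next, then Rdh14, Rdh13 and Retsat, and Rdh10 was lowest at 2.42 ± 0.675 CPM per kilobase in guide and 0.752 ± 0.367 in control libraries. Rdh11 had rank 5 and Rdh8 rank 6 in guide libraries, and the other way round in control libraries, where the 2 genes overlapped. The annotation used by the authors for counting is not given in the sources used here, so these lengths may differ from theirs.

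**Figure D1:**
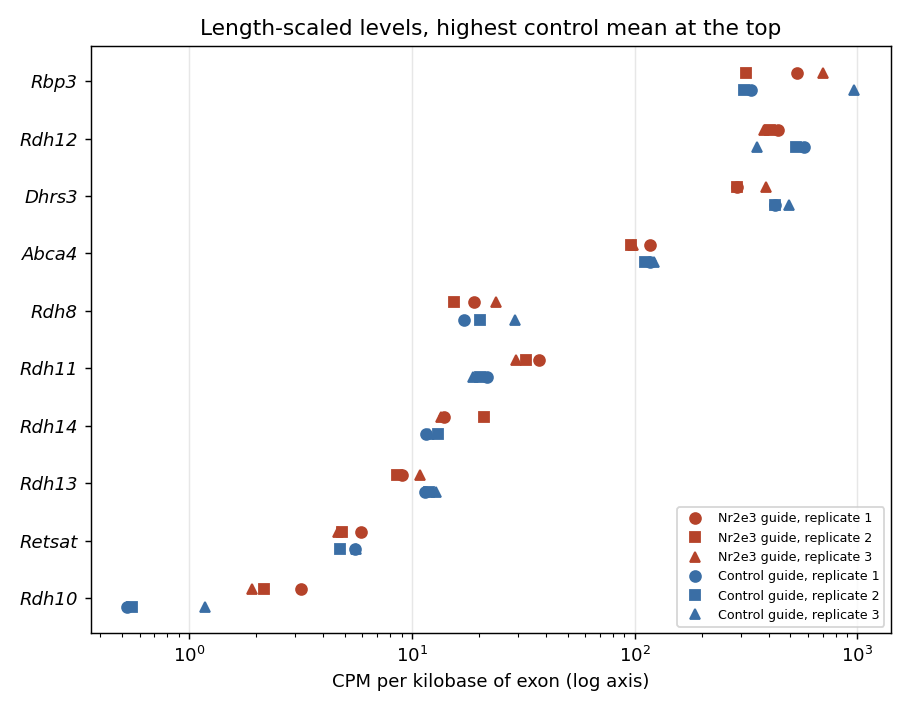
Length-scaled levels of the 10 genes in each library (horizontal log axis, CPM per kilobase of exon), ordered by the control mean; red points are Nr2e3 guide and blue points control guide libraries, with marker shapes for replicates. Rbp3, Rdh12 and Dhrs3 share the top, Rdh10 is lowest, and red lies right of blue without overlap for Rdh10, Rdh11 and Rdh14 and left of it for Dhrs3 and Rdh13.

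Retinoid genes were compared between guides with edgeR's quasi-likelihood test over 17138 genes. None of the 10 passed an adjusted p of 0.05: 0 of 10 were called, where 0.344% of all genes tested were called (0.315% higher and 0.0292% lower). At an unadjusted p under 0.05, 4 of 10 remained (5.69% of all genes, 3.08% higher and 2.61% lower), Rdh10 and Rdh11 higher and Dhrs3 and Rdh13 lower with the Nr2e3 guide. For 5 of the 10 the groups did not overlap (12.1% of all genes, 6.2% higher and 5.91% lower), Rdh10, Rdh11 and Rdh14 with every guide library above every control library and Dhrs3 and Rdh13 with every guide library below. On plain CPM, without TMM, Rdh13 overlapped and the other 4 did not. The median log2 fold change of the 10 genes was -0.11, beside -0.01 over all genes. DESeq2's Wald test called 1 of the 10, Rdh10, as higher, where it called 1.23% of its genes and 0.936% as higher. Limma-voom with quality weights called 2, Rdh10 and Rdh11, both as higher, where it called 1.04% of genes and 0.934% as higher. DESeq2 with sex as a term called Rdh10 alone (1.34% of genes, 0.656% as higher). As all females are guide libraries, the guide estimate of that fit rests on guide replicate 1 against the control libraries. Without control replicate 3, edgeR called 0 of the 10 (0.5% of genes, 0.45% as higher). In bulk RNA from sorted cells, fewer cells of a type and less RNA per cell cannot be told apart, and this holds for each level below.

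**Figure D2:**
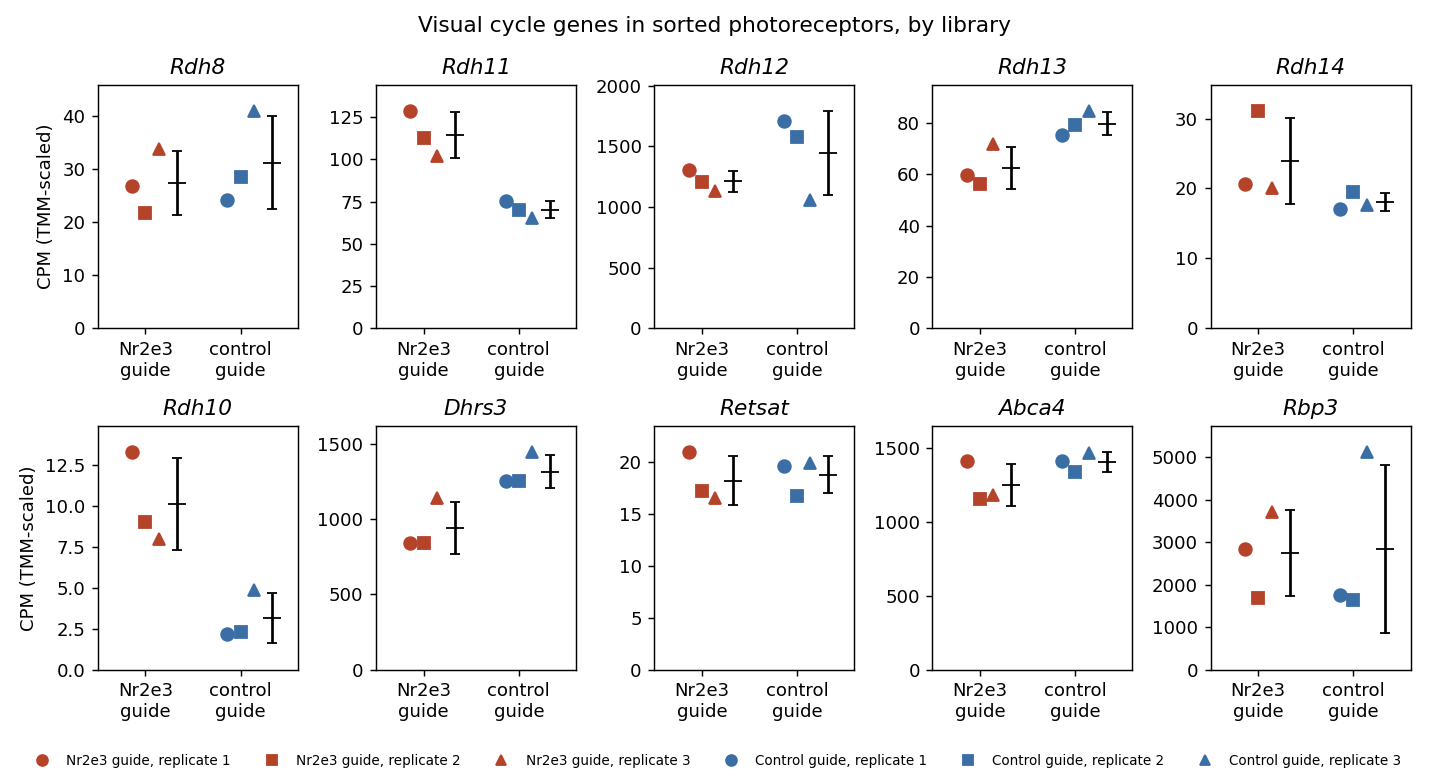
CPM (TMM-scaled, axes from 0) of each gene in the 3 Nr2e3 guide libraries (red, left) and 3 control guide libraries (blue, right); bars give mean ± SD. Rdh10 and Rdh11 stand higher and Dhrs3 lower in all guide libraries, and control replicate 3 (blue triangle) sets the top of Rbp3 at 5122 CPM and the bottom of Rdh12 at 1057 CPM.

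Rdh11, a reductase that accepts both cis and all-trans retinal and is found in photoreceptors and pigment epithelium, had the smallest p of the 10 genes by edgeR, while DESeq2 and limma-voom gave Rdh10 the smaller one. Its level was 129, 112 and 102 CPM in guide libraries, against 75.4, 70.2 and 65.2 CPM in control libraries. The lowest guide library was above the highest control library, and both groups were tight. This gave a log2 fold change of 0.70 (SE 0.14, n = 3 each), or 1.63-fold, with an edgeR adjusted p of 0.162 and rank 147 by p among all genes tested. Limma-voom gave an adjusted p of 0.0374 and DESeq2 one of 0.0503. Each fit with 1 library left out kept the direction, with log2 fold changes of 0.61 to 0.77.

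Rdh12 had the highest mean level of the 7 dehydrogenase genes in both groups, although Dhrs3 lay above it in both replicate-3 libraries. Rdh12 is the closest of the 7 to Rdh11 in coding sequence, and it showed no such gap. It was at 1302, 1206 and 1131 CPM in guide libraries, against 1708, 1577 and 1057 CPM in control libraries. Control replicate 3 was below all guide libraries and control replicates 1 and 2 were above them, so the groups overlapped. Between groups the log2 fold change was -0.25 (SE 0.19, edgeR adjusted p = 0.995), and -0.44 without control replicate 3 (edgeR adjusted p = 0.307). Without control replicate 1 it was -0.12, and -0.15 with sex as a term.

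The pair are neighbours on chromosome 12 of GRCm38, with Rdh11 at 79174337 to 79192293 on the minus strand and Rdh12 at 79208914 to 79222665 on the plus strand, 16621 bases apart and with their starts facing each other. Their coding sequences (951 bases each) were 68.9% identical, the highest of the 21 pairs among the 7 dehydrogenase genes. The longest identical run in any of these pairs was 17 bases, and no 50-base word of Rdh11 occurred in transcripts of another gene. The share of reads assigned to Rdh11 relative to Rdh12 needs no library scaling. It was 9.87, 9.32 and 9.003 Rdh11 counts per 100 Rdh12 counts in guide libraries, against 4.41, 4.45 and 6.17 in control libraries. All 3 guide libraries were above all 3 control libraries, with means of 9.40 ± 0.439 and 5.01 ± 1.01 (two-sided exact permutation p = 0.1, the smallest that 3 against 3 allows). This ratio was chosen after the values were seen, and any quantity without overlap gives this p, so it adds nothing to the lack of overlap.

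Rdh8, the outer-segment reductase of all-trans-retinal, was at 26.8, 21.8 and 33.7 CPM in guide libraries, against 24.1, 28.5 and 40.9 CPM in control libraries. Its groups overlapped, and replicate 3 was the highest library in each. On the log2 scale the difference was -0.19 (SE 0.26; adjusted p = 0.995 by edgeR), and it became 0.06 without control replicate 3. Rdh8 lies on chromosome 9, 20818503 to 20826117.

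Rdh13, a mitochondrial member of the family, stood at 59.5, 56.4 and 71.7 CPM in guide libraries, against 75.4, 79.2 and 84.6 CPM in control libraries. Guide libraries were all below control libraries, by a small margin between guide replicate 3 and control replicate 1 that closes on plain CPM (73.6 and 72.7). Its log2 fold change was -0.35 (SE 0.15, edgeR adjusted p = 0.865). A microRNA gene, Gm24605, shares 96 bases of exon with Rdh13 on the same strand (chromosome 7, 4424770 to 4445649). Gm24605 is not among the genes counted.

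Rdh14, a widely expressed reductase whose promoter window holds the AAGTCA repeat, was at 20.7, 31.1 and 20.02 CPM in guide libraries, against 17.1, 19.5 and 17.7 CPM in control libraries. Guide replicate 2 was well above the rest, and the other guide libraries were just above control replicate 2. The groups differed by 0.40 on the log2 scale (SE 0.22, edgeR adjusted p = 0.976), and it was 0.17 without guide replicate 2. It was 0.20 with sex as a term and 0.18 in males only, 1 guide library against 3 control libraries. Rdh14 is also on chromosome 12, from 10390772 to 10395562.

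Seen as a group, the 5 Rdh reductases summed to 518, 484 and 459 CPM per kilobase in guide libraries, against 638, 597 and 429 in control libraries. The sums overlapped. Dhrs3, which also reduces retinal, is not in this sum. It stood at 288, 288 and 391 CPM per kilobase in guide libraries, against 429, 428 and 494 in control libraries. Rdh12 made up 84.7, 84.0 and 83.0% of the sum without Dhrs3 in guide libraries, against 90.3, 89.0 and 83.0% in control libraries. Rdh11 made up 7.18, 6.72 and 6.42% in guide libraries, against 3.42, 3.40 and 4.40% in control libraries, with no overlap (exact permutation p = 0.1, two-sided). The other 3 genes of the sum each stayed under 7% in every library. These shares were chosen after the values were seen.

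**Figure D3:**
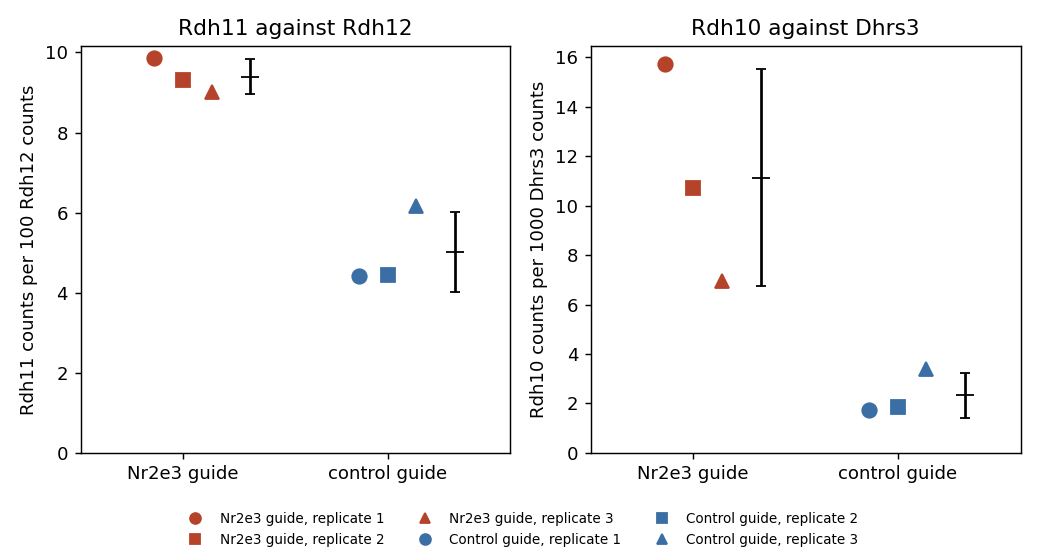
Ratios of raw counts within each library, left Rdh11 per 100 Rdh12 counts and right Rdh10 per 1000 Dhrs3 counts, for Nr2e3 guide (red) and control guide (blue) libraries with mean ± SD bars. In both panels all 3 guide libraries lie above all 3 control libraries, at 9.003 or more against 6.17 or less on the left and at 6.97 or more against 3.38 or less on the right.

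Rdh10 and Dhrs3 act in opposite directions, Rdh10 oxidising retinol to retinal, the first step towards retinoic acid in the embryo, and Dhrs3 reducing retinal to retinol. Rdh10 (chromosome 1, 16105774 to 16133734) was the member with the largest fold change and the lowest level. It had 350, 207 and 271 counts in guide libraries, against 69, 80 and 183 counts in control libraries, or 13.3, 9.01 and 7.98 CPM against 2.19, 2.31 and 4.89 CPM. Guide libraries were all above control libraries, with control replicate 3 nearest to them. In the edgeR fit the log2 fold change was 1.68 (SE 0.41, 3.21-fold, n = 3 each) with an edgeR adjusted p of 0.288, while DESeq2 gave 0.00575 and limma-voom 0.0124. Without control replicate 3 it was 2.16 (SE 0.34, edgeR adjusted p = 0.0649). In the fits without another single library it was 1.44 to 1.83, with edgeR adjusted p of 0.328 to 0.984.

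Rdh10 is known from pigment epithelium and Muller glia, so their markers are given beside it. Of the 12 pigment epithelium markers, 6 were too low to be tested, and the defining genes Rpe65 (0 to 1 counts in guide, 0 to 3 in control libraries) and Lrat (0 to 3 in guide, 0 to 7 in control libraries) were near 0 in all 6. Rpe65 and Lrat are named here after their values were seen. The median log2 fold change of the 6 tested was -2.28, with 0 called by edgeR and 0 at an unadjusted p under 0.05, and their part in the level of Rdh10 was not tested. None of 15 Muller glia markers was called by edgeR and 0 had an unadjusted p under 0.05. Their summed level overlapped, at 1379 to 1698 CPM with the Nr2e3 guide and 1311 to 1607 CPM with the control guide. Most of it was Clu and Aldoc, named after their values were seen, so the sum says little about the other markers. Clu was at 634, 1099 and 733 CPM in guide libraries, against 327, 304 and 938 CPM in control libraries. Aldoc was at 566, 408 and 445 CPM, against 627, 604 and 475 CPM. The list's median was -0.27 on the log2 scale. In control replicate 3, 12 of the 15 lay below both other control libraries. Among guide libraries the male, replicate 1, had the highest Rdh10 level, at 1.56 times the mean of the females. With males alone, 1 guide library against 3 control libraries, the log2 fold change was 2.07 (SE 0.54, edgeR adjusted p = 0.529).

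Dhrs3, a retinal reductase known from cone outer segments, is on chromosome 4 from 144892827 to 144928209. It was at 843, 842 and 1144 CPM in guide libraries, against 1255, 1254 and 1447 CPM in control libraries. Replicate 3 was the highest in each group, and guide replicate 3 still lay below every control library. The log2 fold change was -0.48 (SE 0.16, edgeR adjusted p = 0.660). It was -0.57 (SE 0.09, edgeR adjusted p = 0.0996) with both replicate-3 libraries left out. This was the lowest adjusted p of Dhrs3 in the 20 other settings. Of the 12 cone markers 0 were called by edgeR (3 higher and 1 lower at an unadjusted p under 0.05, 3.08 and 2.61% of all genes). The summed level of the cone markers was 13588 to 17448 CPM in guide and 4026 to 8588 CPM in control libraries, with none at 0, while the median over these markers was -0.51. Most of the difference in the sum lay in Gnat2, the cone transducin, named after its values were seen. It was at 7612 ± 708 CPM with the Nr2e3 guide and 772 ± 512 CPM with the control guide (SD, n = 3 each, edgeR adjusted p = 0.121). Log2 fold changes were also above 0 for Pde6c, Pde6h and Gnb3. They were below 0 for Opn1sw, Opn1mw, Arr3, Gngt2, Cnga3, Cngb3, Rxrg and Thrb. These genes too are named after their values were seen. The part of the cone markers in the level of Dhrs3 was not tested.

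Counts of Rdh10 per 1000 counts of Dhrs3 were 15.7, 10.7 and 6.97 in guide libraries, against 1.75, 1.84 and 3.38 in control libraries. The groups did not overlap, and replicate 3 was the lowest guide and the highest control library (exact permutation p = 0.1, two-sided). This ratio too was chosen after the values were seen. Counts of Dhrs3 per 100 counts of Rdh12 overlapped between groups (exact permutation p = 0.5). Retsat, which saturates a double bond of all-trans-retinol, was at 21.0, 17.2 and 16.5 CPM in guide libraries, against 19.7, 16.8 and 19.96 CPM in control libraries, and the groups overlapped. Its log2 fold change was -0.04 (SE 0.19, edgeR adjusted p = 0.996). Exons of Retsat (chromosome 6, 72598475 to 72608425) share 650 bases with Gm45053 on the opposite strand, and 14.1% of the 50-base words of Retsat transcripts occur there. Reads from the overlap cannot be told apart without strand, and Gm45053 is not among the genes counted.

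The retinoid carriers had ranks 1 (Rbp3) and 4 (Abca4) by level per kilobase. Abca4, the flippase that clears all-trans-retinal conjugates from the disc lumen, was at 1412, 1157 and 1182 CPM in guide libraries, against 1414, 1336 and 1469 CPM in control libraries. Guide replicate 1 reached the control range and the other guide libraries lay below it. Group means differed by -0.17 on the log2 scale (SE 0.13; adjusted p = 0.995 by edgeR). Its gene spans chromosome 3 from 122044443 to 122180123 with 56 exon blocks.

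Rbp3, the secreted protein that ferries retinoids through the interphotoreceptor matrix (chromosome 14, 33954003 to 33964216), varied most between animals. It was at 2848, 1680.2 and 3712 CPM in guide libraries, against 1764, 1645 and 5122 CPM in control libraries. Replicate 3 was the highest in each group, at 1.64 times the mean of the other guide libraries and 3.005 times the mean of the other control libraries, and the groups overlapped. The coefficient of variation was 37.1% in guide and 69.4% in control libraries, against 4.75 to 48.7% for the other 9 genes. Its log2 fold change, -0.05 (SE 0.48; adjusted p = 0.998 by edgeR), therefore rests on control replicate 3: it was 0.68 without that library (SE 0.30, edgeR adjusted p = 0.591) and between -0.33 and 0.20 without any other.

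The genes most like Rbp3 over the 6 libraries, by Pearson's r of log2(CPM + 1) among 5571 genes with a mean of at least 20 CPM, were Tecpr1 (r = 0.992), Smurf2 (0.988) and Igsf9 (0.987), which share its high replicate 3. For Rdh10 they were Rasgrf2 (0.994), Optn (0.989) and Ppm1b (0.988). These coefficients describe 6 libraries that share their scaling, and 81 genes reached 0.95 with Rbp3 and 50 with Rdh10. Rasgrf2 was at 121, 112 and 112 CPM in guide libraries, against 84.7, 85.6 and 96.4 CPM in control libraries. The other matches of Rdh10 show the same order of groups, with Optn at 106 to 127 CPM with the Nr2e3 guide and 68.7 to 84.2 CPM with the control guide. All matches were picked for following Rbp3 or Rdh10 over these 6 libraries, so these shared patterns follow from the choice.

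**Figure D4:**
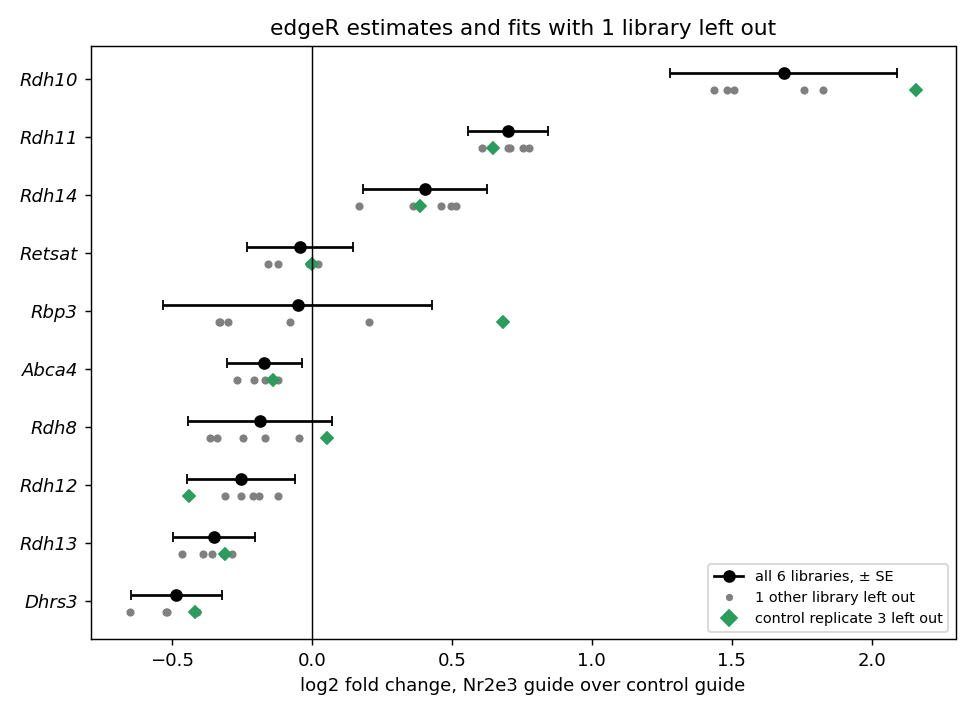
Log2 fold changes of the 10 genes, Nr2e3 guide over control guide, from edgeR with all 6 libraries (black, ± SE) and with each library left out in turn (grey dots, green diamonds for control replicate 3). Rdh10, Rdh11 and Rdh14 stay right of 0 and Rdh12, Rdh13 and Dhrs3 left of it in all fits shown, while Rbp3 moves to 0.68 without control replicate 3.

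Partner genes of the cycle were read from lists. Of 12 visual cycle genes of pigment epithelium and Muller glia, 11 were counted and 9 tested, and edgeR called 0. At an unadjusted p under 0.05 there was 1 of the 9, Rdh5, lower with the Nr2e3 guide (2.61% of all genes were lower), and the median was -0.43 on the log2 scale. Degs1, proposed as a retinol isomerase of Muller glia, averaged 58.3 ± 6.88 CPM with the Nr2e3 guide and 60.1 ± 1.10 CPM with the control guide. Rlbp1, the carrier of cis-retinoids in those cells, averaged 50.1 ± 24.2 CPM with the Nr2e3 guide and 67.3 ± 27.8 CPM with the control guide (SD, n = 3 each). DESeq2, which called 0.293% of its genes lower, called Rdh5, a retinol dehydrogenase of pigment epithelium, lower (14, 21 and 56 counts in guide libraries, against 92, 116 and 190 in control libraries), and limma-voom called none. Rdh5 was named after its values were seen, and 720 bases of its exons are shared with Bloc1s1 on the same strand.

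Retinoic acid enzymes, binding proteins and receptors numbered 17, of which 10 were tested and 0 called by edgeR, DESeq2 or limma-voom, with 1 of the 10, Rbp4, higher at an unadjusted p under 0.05 (3.08% of all genes were higher) and a median log2 fold change of 0.09. The receptors Rxra (22.0 ± 6.08 CPM with the Nr2e3 guide and 23.6 ± 10.1 CPM with the control guide) and Rxrg (10.8 ± 5.19 and 18.0 ± 10.6 CPM) were the most abundant. Aldh1a2 and Bco1 had no count in any library, which allows at most 0.0802 to 0.131 CPM. These 2 genes and Rbp4 were named after their values were seen. Of 31 other short-chain dehydrogenase relatives, 20 were tested and 0 called by these tools, with a median of -0.18. At an unadjusted p under 0.05, 0 of the 20 were higher (3.08% of all genes) and 3 were lower (2.61% of all genes). These 3 were Wwox, Rdh1 and Rdh9, of which Rdh1 and Rdh9 were named after their values were seen. Wwox averaged 82.5 ± 8.63 CPM with the Nr2e3 guide and 112 ± 11.7 CPM with the control guide (-0.45 on the log2 scale, SE 0.15, adjusted p = 0.609 by edgeR), with no overlap, and Decr2, a peroxisomal reductase, at 91.3 ± 21.2 and 88.6 ± 6.00 CPM.

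Other transporters of the ABCA family, 10 of 15 tested, had 0 called by the 3 tools, 0 at an unadjusted p under 0.05 and a median of 0.05. The most abundant, Abca13, averaged 41.0 ± 11.3 CPM with the Nr2e3 guide and 35.5 ± 12.1 CPM with the control guide, and Abca3 at 21.9 ± 2.54 and 28.1 ± 9.17 CPM. The 18 genes that supply NADPH, the reductant of the retinal reductases, were all tested with 0 called by the 3 tools, 0 at an unadjusted p under 0.05 and a median of 0.06. Taldo1, of the pentose phosphate pathway, averaged 359 ± 27.8 CPM with the Nr2e3 guide and 346 ± 10.1 CPM with the control guide, and Nadk2, a mitochondrial NAD kinase, at 187 ± 22.0 and 154 ± 5.95 CPM. Of 9 genes of the interphotoreceptor matrix, which surrounds Rbp3, 8 were tested, with 0 called by the 3 tools, 0 at an unadjusted p under 0.05 and a median of 0.07. Impg1, a matrix proteoglycan, averaged 430 ± 75.3 CPM with the Nr2e3 guide and 377 ± 57.6 CPM with the control guide (SD, n = 3 each).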

How the data were processed

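RNA was measured in 3 Nr2e3 guide and 3 control guide libraries. The authors deposited raw read counts per gene symbol for 49997 genes and, in each library's table, 5 further entries without a gene. Build GRCm38 (mm10) and the tools STAR 2.7.3a, cutadapt, DESeq2 1.42.0 and HTSeq 0.12.4 are named, per the submitters' processing notes. Which annotation and strand setting were used is not given in the sources used here. The SMARTer kit named in the labels' protocols does not mark strand. The entries without a gene, 21.6 to 23.7% of counts, were left out. Library totals were scaled with TMM factors of 0.931 to 1.09.

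The main test was edgeR 4.0.16 under R 4.3.3 (filterByExpr with minimum count 10 and total 15, glmQLFit, glmQLFTest, group as the only term, Benjamini-Hochberg adjustment over 17138 genes, threshold 0.05). On simulated data, only the recovery of median fold changes was checked, not the rate of calls. Standard errors were taken as log2 fold change over root F. DESeq2 1.42.0 and limma 3.58.1 (voom with quality weights) were alternatives, with those listed under the dependence on processing. Positions and exon lengths come from GENCODE M21 (GRCm38), promoters from RefSeq. Within groups, chi-square per degree of freedom between libraries was 15.7 or more, so none counts as a duplicate. Intervals from counts cover counting error only, since reads carry no molecular identifiers.

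The members, lists and naming rule were chosen with earlier results of these data known. The rule names all members, in each other list up to 4 called genes or else the 2 of highest mean CPM, and for the member of highest level and that of largest fold change the 3 most alike genes. Other names are said to be chosen after their values were seen. Most genes that the rule gives for the cell type marker lists are not reported. In the other lists, for 1 gene covered by the naming rule, no result is reported here.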

Additional observations from a re-analysis of the deposited data

How the results depend on the processing

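The 10 log2 fold changes were read in 20 other settings, 2 of them (robust estimation and DESeq2 with sex as a term) added after seeing the data. The setting with a threshold of 0.1 reuses the main fit, and robust estimation left every fold change as it was. Their values are among the 182 below and say nothing about direction. Of 200 values, 182 kept direction and side of the threshold, 4 newly passed (Rdh10 in both DESeq2 fits and limma-voom, Rdh11 in limma-voom) and 14 changed sign, each within 0.68 of 0. The number of members called, 0 by edgeR, was 1 with DESeq2, 2 with limma-voom and 1 with DESeq2 and sex. For the partner lists it was 0, against 1 with DESeq2 and 2 with DESeq2 and sex. Of all genes 59 were called, against 239 with DESeq2, 179 with limma-voom, 155 with no count filter, 32 with a replicate block, 6 with sex as a term, 0 among males (1752 at an unadjusted p under 0.05), 228 with DESeq2 and sex, 91 at an adjusted p of 0.1 and 14 to 89 without 1 library, the highest without control replicate 3.

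Signs changed for Rbp3 with limma-voom (0.55), the replicate block (0.085), sex (0.0021) and both replicate-3 libraries left out (0.41), and without 1 library it ran from -0.33 to 0.68. Retsat changed with limma-voom (0.061), sex (0.16), males only (0.15), DESeq2 and sex (0.14) and both replicate-3 libraries left out (0.072), and without 1 library ran from -0.16 to 0.020. Abca4 changed with sex (0.0056), and Rdh8 without 1 library ran from -0.36 to 0.056. The cause was not tested. Fits with sex or males only gave Rdh14 0.18 to 0.20, against 0.40, and Rdh12 -0.17 to -0.15, against -0.25. All females are guide libraries, so with a term for sex the guide estimate rests on guide replicate 1. Same-numbered libraries had correlations of their deviations of 0.17, -0.12 and 0.14, so replicate numbers were not taken as pairs, and the replicate block called 0 of the 10 genes. At 69 to 350 counts, Rdh10 is the member most limited by depth.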
